A study of Rattus norvegicus with 6 samples.

Results

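Lungs of rats that had inhaled ultrafine nickel oxide (NiO) were compared with lungs of rats that had inhaled C60 fullerene, 1 month after exposure ended. All 8 arrays of these groups were used, 4 of NiO and 4 of C60, of 23 arrays in the series, and the difference is given throughout as NiO minus C60. The animals were male Wistar rats, 9 weeks old, with no genetic change named. They breathed a particle aerosol in whole-body chambers for 6 hours a day, 5 days a week, over 4 weeks, and were dissected 33 days later. NiO was the positive control of the study, and a clean-air group of 4 arrays at the same time is given beside the values as measured background. Lungs were rinsed with saline through the vessels, and RNA of the whole right lung was hybridised to 1-colour oligonucleotide arrays. Each slide held 1 group, so that slide and group cannot be told apart, and each array was read as 1 lung from the n of the labels.

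Inhaled particles that stay in the lung are taken up mainly by alveolar macrophages, which carry them into lysosomes acidified by a proton pump. Macrophages loaded with particles or lipid are known for genes of lipid handling, lysosomes and tissue repair, such as Trem2, Gpnmb and Spp1. Nickel oxide dissolves slowly and releases a metal ion, whereas C60 is a cage of carbon atoms.

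The lung label held on these 8 arrays. The surfactant gene Sftpc, made by alveolar type II cells, lay between 8.55 and 8.81 and the alveolar type I gene Ager between 5.53 and 6.05. The club cell gene Scgb1a1 (3.76 to 4.31), the ciliated cell factor Foxj1 (2.87 to 3.48) and the endothelial gene Pecam1 (-2.30 to -1.95) were also well above background on all 8. Levels are log2 of the processed signal relative to the array's 75th percentile, so that a level of 0 equals that percentile. The share of spots marked as well above background was 67.5 to 70.3 percent on the 8 arrays. Correlations across features, which are not independent replicates, ran from 0.991 to 0.997 within NiO, from 0.990 to 0.993 within C60 and from 0.985 to 0.991 between the groups.

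NiO arrays 3 and 4 stood apart from the other NiO arrays, in different genes. NiO array 3 had the highest NiO level of many genes of activated macrophages and inflammation. NiO array 4 stood apart in genes of the circadian clock, in which Bmal1 drives and Dbp follows the daily rhythm. Dbp was at -0.51, -0.44 and -0.28 on NiO arrays 1 to 3 and at 2.92 on NiO array 4, against 2.88, 2.96, 2.37 and 2.33 on the C60 arrays. Bmal1 was at 1.64, 1.68 and 1.55 on NiO arrays 1 to 3 and at 0.13 on NiO array 4, against 0.14, 0.20, 0.69 and 0.52 on the C60 arrays. In both genes NiO array 4 lay with or beyond the C60 arrays and away from its own group. Clean-air arrays split in the same way, with Bmal1 at 1.59, 1.66 and 1.63 on arrays 1 to 3 and at 0.14 on array 4. The sources used here do not give the time of day of dissection, and the part of the clock genes in other differences was not tested. These clock genes were named after their values were seen.

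A gene was called where limma's Benjamini-Hochberg adjusted p lay under 0.05 in the fit of these 8 arrays. Of 23672 features tested, 629 (2.66 percent) were called, 362 (1.53 percent) higher and 267 (1.13 percent) lower after NiO. With the arrays scaled to their medians in place of their 75th percentiles, the share of calls that were higher moved from 57.6 to 68.9 percent. By at least 1 log2 unit, 79 (0.334 percent) were higher and 34 (0.144 percent) lower. The median difference of all features was -0.01, and 47.0 percent of them lay above 0. An unadjusted p under 0.05 in limma was reached by 4676 of the 23672 features. Many calls lay close to the threshold: without NiO array 2 only 94 of the 629 were still called, without C60 array 1 130, without C60 array 2 170, without NiO array 1 186, without C60 array 4 240, without NiO array 3 289, and without C60 array 3 361. Without NiO array 4, 517 of the 629 were still called and 934 features passed. No called feature changed direction when an array was left out. The arrays of both groups did not overlap for 3088 features (13.0 percent). Of the 629, 168 were still called with no filter on background, 283 with clean air in the fit and 248 with all 6 groups in it. With only 1 slide per group, a p-value reflects array-to-array spread within slides.

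**Figure D1:**
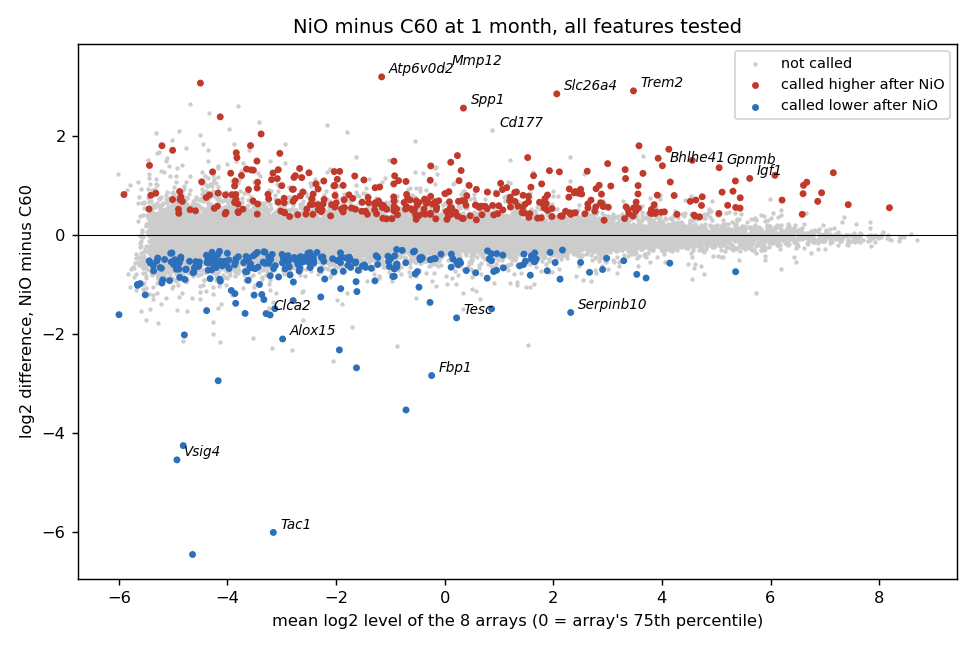
The log2 difference (NiO minus C60) of each feature tested is plotted against its mean log2 level over the 8 arrays, with called features coloured. Tac1, well above background on 1 of 4 NiO arrays, lies lowest of the labelled genes at a measured -6.00, and Mmp12, which was not called, lies highest at 3.37.

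Among called genes whose arrays did not overlap, Atp6v0d2, Trem2 and Slc26a4 had the 3 largest rises. Atp6v0d2, which codes for part of the vacuolar proton pump, was at 0.31, 0.10, 1.17 and 0.16 on the NiO arrays and at -2.83, -2.71, -2.33 and -3.15 on the C60 arrays. It was higher after NiO by 3.19 (SE 0.26, n = 4 and 4; limma adjusted p = 0.00292). The C60 arrays overlapped the clean-air arrays (-2.35 to -1.44), and every NiO array lay above both. Trem2, a lipid-sensing receptor of macrophages, was at 5.00, 4.68, 5.64 and 4.42 after NiO and at 2.28, 1.10, 2.56 and 2.14 after C60. The difference was 2.91 (SE 0.35; limma adjusted p = 0.0107), and C60 again overlapped clean air (1.97 to 2.98). Slc26a4, an anion exchanger of secretory epithelia, was at 3.18, 2.97, 4.71 and 3.10 after NiO and at 0.43, 0.58, 0.96 and 0.58 after C60, a difference of 2.85 (SE 0.36; limma adjusted p = 0.0125). These 3 genes kept their call in all 18 alternative analyses run.

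Spp1, the matrix protein osteopontin, was at 2.22, 1.73, 2.55 and 0.01 after NiO and at -0.81, -0.63, -1.43 and -0.88 after C60. The groups did not overlap (difference 2.56, SE 0.50; limma adjusted p = 0.0399), but NiO array 4 lay below clean-air array 2 (0.79). Its call was lost without any 1 of the C60 arrays or of NiO arrays 1, 2 and 3, with adjusted p up to 0.106 in limma. Lcn2, which binds iron carriers of bacteria, was at 4.10, 4.17, 5.72 and 3.93 after NiO and at 2.84, 2.59, 2.82 and 2.45 after C60 (difference 1.80, SE 0.36; limma adjusted p = 0.0431). NiO array 3 was the highest array for Lcn2, and the call was lost without any 1 C60 array or without NiO array 1 or 2 (adjusted p up to 0.0988 in limma). Retnla, a secreted product of alternatively activated macrophages, was higher by 1.56 (SE 0.29; limma adjusted p = 0.0352), a call lost without any 1 of C60 arrays 1 to 3 or NiO arrays 1 to 3 and also in the fits with clean air. Meis3, a homeobox transcription factor, was higher by 1.60 (SE 0.25; limma adjusted p = 0.0207), lost without C60 array 1 or 2 or NiO array 2.

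The remaining 5 of the 12 highest named genes were dim, and their size depended on background correction. Itih1, a heavy chain that is bound to hyaluronan, was at least 5.11-fold higher (measured difference 2.39, with 3 of 4 C60 arrays well above background) and Cpb2, a carboxypeptidase that restrains clot breakdown, was higher by 1.66. Sdcbp2, the scaffold protein syntenin-2, was at least 2.75-fold, Slc7a2, a carrier of cationic amino acids, at least 2.87-fold and Slc16a14, a member of the monocarboxylate carrier family, at least 2.04-fold higher. Each bound raises a dim array to the lowest processed signal well above background on that array where the probe lay below it. The last 3 bounds are given because no C60 array was well above background for these probes, whose measured differences were 1.80, 1.71 and 1.41. With normexp background correction the differences were 0.71 for Itih1, 0.55 for Cpb2, 0.17 for Sdcbp2 and 0.17 for Slc7a2, none of them called, and -0.0004 for Slc16a14. Slc16a14 was at -4.91, -4.70, -4.50 and -4.82 after NiO, within the range of the clean-air arrays (-5.04 to -3.89), and at -6.36 to -5.83 after C60, so that the C60 arrays were the low ones. Itih1 also lost its call without C60 array 2 or NiO array 2, and Slc7a2 without NiO array 2 and in the fits with clean air.

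**Figure D2:**
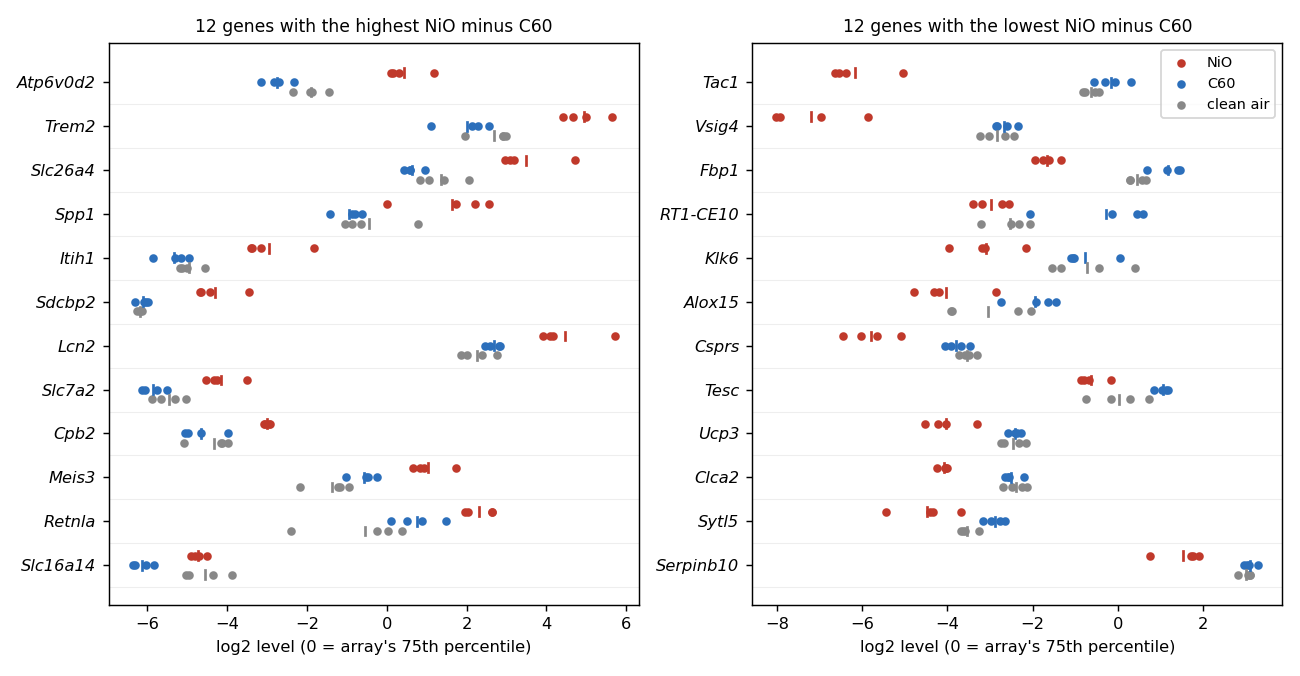
Each point is the log2 level of 1 array and each short bar a group mean, for the 12 named genes with the highest and the 12 with the lowest difference, with 4 arrays each of NiO, C60 and clean air. Clean air overlaps NiO in Spp1, Slc16a14, RT1-CE10, Alox15 and Tesc, and the C60 arrays lie apart from clean air in Slc16a14, Fbp1, RT1-CE10, Tesc and Sytl5.

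Among called genes whose arrays did not overlap, Tac1, Vsig4 and Fbp1 had the 3 largest measured falls. Tac1, which codes for substance P, a peptide of sensory nerves, was at -6.64, -6.55, -6.38 and -5.04 after NiO and at -0.06, 0.32, -0.56 and -0.31 after C60. Only 1 of 4 NiO arrays was well above background, so the size is a bound: Tac1 was at least 42.4-fold lower after NiO (measured difference -6.00, SE 0.36; limma adjusted p = 0.000911). Of the other 12 tachykinin and sensory peptide genes tested, none was called. With Tac1, the 13 genes of that list had a median of -0.33, and 2 of them lay above 0. At an unadjusted p under 0.05 in limma 5 of the 13 were lower and 0 higher. Without C60 array 3, 2 were called lower. Vsig4, a complement receptor of resident tissue macrophages, was below the mark for background on all 4 NiO arrays (-6.98, -8.01, -5.87 and -7.93) and was at -2.59, -2.87, -2.84 and -2.35 after C60. It was at least 8.27-fold lower after NiO (measured difference -4.54, SE 0.44; limma adjusted p = 0.00593). Fbp1, an enzyme of glucose synthesis, was at -1.75, -1.94, -1.33 and -1.61 after NiO and at 1.45, 1.15, 0.69 and 1.42 after C60, a difference of -2.84 (SE 0.19; limma adjusted p = 0.00108), and a second Fbp1 probe gave -2.92. C60 overlapped clean air for Tac1 and Vsig4, and for Fbp1 it lay above clean air (0.29 to 0.67). With normexp background correction the differences were -3.17 for Tac1 and -1.48 for Vsig4, both still called, so that the bounds hold for the processed signal only.

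The other 9 of the 12 lowest genes held to different degrees. Clca2, an accessory protein of chloride channels, fell by 1.59 on the log2 scale (SE 0.11; limma adjusted p = 0.00108) and Tesc, a calcium-binding protein, by 1.67 (SE 0.16; limma adjusted p = 0.00593), both called in every alternative. A second Tesc probe gave -0.14, and the mean of probes -0.90. For Tesc the NiO arrays (-0.86 to -0.15) overlapped clean air (-0.75 to 0.75), and the C60 arrays (0.855 to 1.187) lay above it. Serpinb10, a protease inhibitor of blood-forming cells, was at 1.91, 1.78, 0.76 and 1.72 after NiO and at 2.98, 3.04, 3.09 and 3.30 after C60 (difference -1.56, SE 0.24; limma adjusted p = 0.0188). Alox15, a lipoxygenase of macrophages and eosinophils, fell by 2.10 on the log2 scale, Klk6, a secreted serine protease, by 2.32, Ucp3, a mitochondrial carrier of muscle, by 1.61, and Sytl5, a partner of vesicle-bound Rab proteins, by 1.58. Csprs was well above background on 1 of 4 NiO arrays and was at least 3.34-fold lower (measured difference -2.02). RT1-CE10, a class I histocompatibility gene of a family of near-identical copies, was at -3.40, -2.71, -3.19 and -2.56 after NiO, within the clean-air range of -3.20 to -2.07 on 3 of 4 arrays. It was at -0.12, 0.58, 0.46 and -2.05 after C60, where array 4 lay just above the highest clean-air array. At 3 days RT1-CE10 was at -2.82, -3.105, -2.07 and 0.31 on the NiO arrays and at -2.50 and 0.73 on the C60 arrays. A single array of each particle was thus high at that time.

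Calls among these genes were lost without 1 array as follows, with limma adjusted p up to 0.124. RT1-CE10 lost its call without C60 array 1, 2 or 3 or any NiO array, Alox15 without any C60 array or NiO array 1, 2 or 3, and Sytl5 without any C60 array or NiO array 1 or 2. Klk6 lost it without C60 array 1, 2 or 4 or NiO array 1, 2 or 3, Serpinb10 without C60 array 1, 2 or 4 or NiO array 2, Ucp3 without NiO array 1 or 2, and Csprs without NiO array 2. With normexp background correction the differences were -1.14 for Alox15, -0.68 for Csprs, -0.91 for Ucp3, -0.92 for Clca2 and -0.86 for Sytl5.

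Beyond these extremes, genes of lipid-loaded macrophages made up the list with the highest median. Of 23 genes tested in a list of 24, 8 were called higher (1.53 percent of all features were) and 0 lower, with a median difference of 0.64 against -0.01 for all features. This list, like all 44, was written with earlier results of these data known, so its count and median are no independent support. The members called were Trem2, Spp1, Gpnmb, Abcg1, Lgals3, Fabp5, Plaur and Lipa. Although 19 of the 23 lay above 0, not all members moved. Apoe (0.04), Apoc1 (-0.05), Lpl (-0.04), Cd9 (0.03) and Pla2g7 (-0.07) lay near 0, and Lgals1 was at -0.26, none of them called. The count of 8 became 4 without C60 array 1 or 2 or NiO array 1 or 2, 5 without C60 array 4 and 9 without NiO array 4. In tissue RNA, more cells of a type and more RNA per cell cannot be told apart. Gpnmb, a glycoprotein of lysosome-rich macrophages, was at 5.44, 5.33, 6.52 and 5.65 after NiO and at 4.25, 4.35, 4.65 and 4.24 after C60. It was higher by 1.36 (SE 0.25; limma adjusted p = 0.0317), a call lost without C60 array 1, 2 or 4 or NiO array 1 or 2. Abcg1, an exporter of cholesterol, was at 5.75, 5.86, 6.18 and 5.80 after NiO and at 4.84, 4.84, 4.92 and 4.63 after C60. It was higher by 1.09 (SE 0.11; limma adjusted p = 0.00593) and kept its call in every alternative. Lgals3, a galectin of phagocytes, was higher by 1.07 (limma adjusted p = 0.00729), Fabp5, a fatty acid carrier, by 0.84 (0.0133), Plaur, the urokinase receptor, by 0.66 (0.0477) and Lipa, the lysosomal lipase, by 0.64 (0.0396). Lgals3 and Fabp5 kept their calls whichever array was left out, whereas Plaur and Lipa lost theirs without C60 array 1, 2 or 4 or NiO array 1, 2 or 3. The highest member, Mmp12, the macrophage elastase, was at 1.20, 1.10, 4.24 and 0.15 after NiO and at -1.33, -1.89, -1.89 and -1.67 after C60. Its groups did not overlap, but with NiO array 3 so far above the others the difference of 3.37 (SE 0.76) had a limma adjusted p of 0.0585. It was called without NiO array 3, without NiO array 4, with normexp and in the fits with clean air (0.035 and 0.00563 with limma in the latter).

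Of 20 general macrophage markers tested, 3 were called higher and 1 lower (1.53 and 1.13 percent of all features were), with a median of 0.37. Their summed linear level, with each array's 75th percentile set to 1, overlapped between NiO (429 to 510) and C60 (422 to 460). The summed level of the lipid-loaded macrophage genes did not overlap (583 to 839 against 383 to 406, with 378 to 406 in clean air). Pparg, a lipid-sensing nuclear receptor of alveolar macrophages, was higher by 1.00 (SE 0.12; limma adjusted p = 0.0107) in every alternative. Mrc1, a mannose receptor, was higher by 0.46 and Axl, a receptor for dying cells, by 0.42, both lost without C60 array 1 or 2 or NiO array 2, and Axl also without C60 array 4 or NiO array 1 or 3. Cd68, a lysosomal membrane protein, differed by 0.81 (limma adjusted p = 0.0722; called with normexp, with all 6 groups and without NiO array 4), and the scavenger receptor Msr1 by 1.91 (0.107). Of 17 genes in the scavenger and phagocytic receptor list, 3 were called higher, Mrc1, Axl and Olr1, and 2 lower, Vsig4 and Fbp1. Olr1, which takes up oxidised lipoprotein, was higher by 1.11 (SE 0.13; limma adjusted p = 0.0105). Its NiO arrays (-1.08 to -0.83) overlapped clean air (-1.56 to -0.94), and its C60 arrays (-2.39 to -1.82) were the low ones. At 3 days Olr1 differed by -0.43. Fbp1 is an enzyme and not a receptor, and 16 genes without it held 3 called higher and 1 lower. The list was chosen with earlier results of these data known, so its lower calls are no independent evidence of direction.

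Of 18 genes of alternative macrophage activation, 6 were called higher (Retnla, Chi3l1, Igf1, Arg1, Pparg and Mrc1) and 1, Alox15, lower, with a median of 0.13. Among all features 1.53 percent were called higher and 1.13 percent lower. The count higher was 2 without C60 array 1 or 2 or NiO array 2 and 3 without NiO array 1. Igf1, a growth factor that macrophages secrete, was at 6.23, 6.22, 6.31 and 6.00 after NiO and at 5.10, 5.22, 4.88 and 4.98 after C60. It was higher by 1.14 (SE 0.10; limma adjusted p = 0.00385) in every alternative, while 2 of the 3 other kept probes of the gene, all dimmer, gave -0.06 and 1.71. Chi3l1, a chitinase-like protein, was higher by 1.30 (SE 0.25; limma adjusted p = 0.0356) and Arg1, which splits arginine, by 1.14 (limma adjusted p = 0.0292). Both were highest on NiO array 3, and their calls were lost without C60 array 1, 2 or 4 or NiO array 1 or 2, and for Arg1 also without C60 array 3.

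Of 33 genes of the lysosome, proton pump and cathepsins, 5 were called higher (1.53 percent of all features were) and 0 lower, with a median of 0.22. The count was 1 without C60 array 1 or 2 or NiO array 2, 2 without C60 array 4 or NiO array 1, 3 without C60 array 3 and 8 without NiO array 4. Besides Atp6v0d2 and Lipa these were the acid phosphatase Acp5 (0.75), the pump subunit Atp6v1b2 (0.67) and the protease Ctsd (0.61). Acp5 and Atp6v1b2 lost their calls without any 1 C60 array or NiO array 1 or 2, and Ctsd without C60 array 1 or 2 or NiO array 2. On the list mean, no NiO array overlapped the C60 arrays (2.81 to 3.28 against 2.65 to 2.70). That was not particular to this list, although other list means, such as that of the proteasome, overlapped. Means also lay apart for alveolar type II markers (3.77 to 3.92 after NiO against 3.51 to 3.65 after C60). For endothelial markers NiO was the lower group (1.79 to 1.89 against 2.01 to 2.205).

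**Figure D3:**
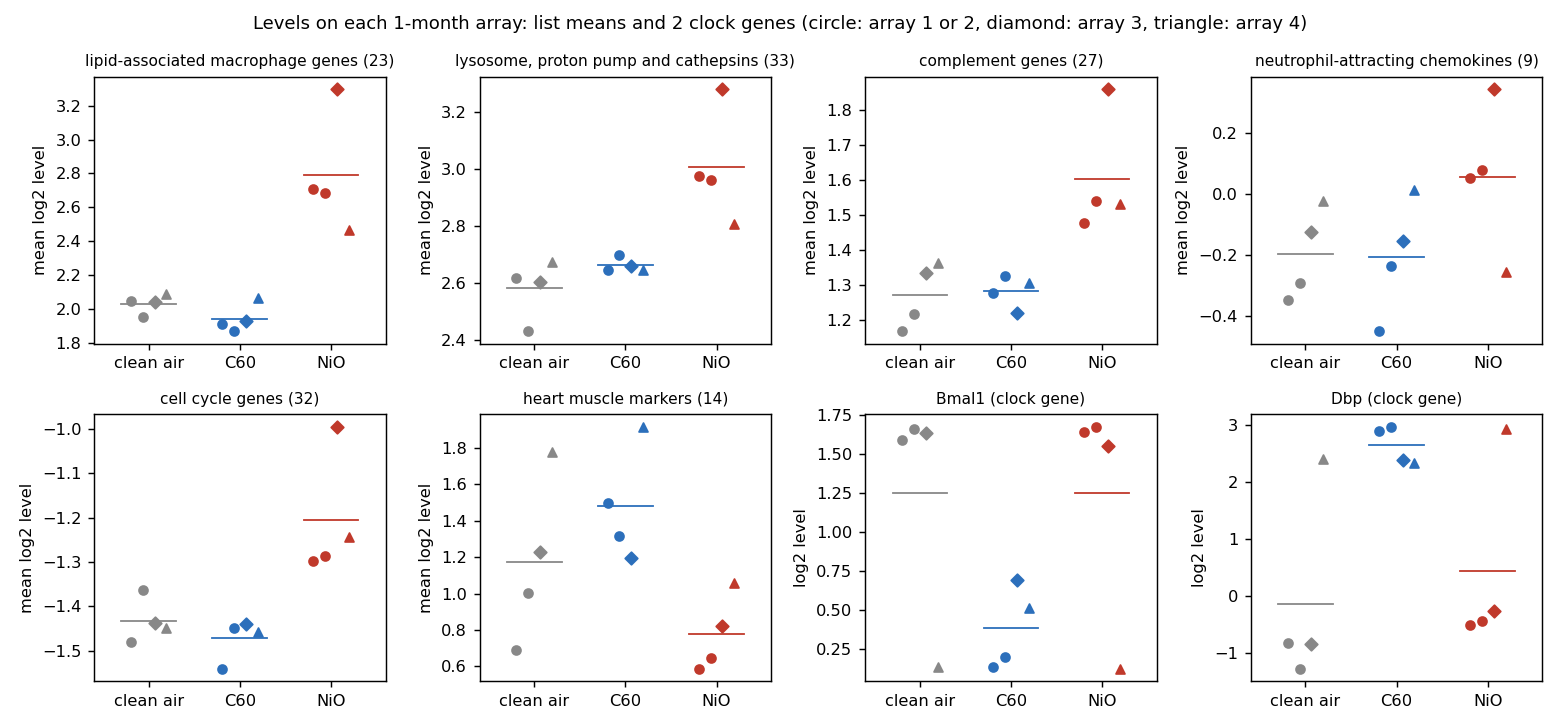
The first 6 panels show the mean log2 level of a gene list on each 1-month array and the last 2 show the clock genes Bmal1 and Dbp, with lines at group means. NiO array 3 (diamond) is highest for the macrophage, lysosome, complement, chemokine and cell cycle lists, and array 4 of both NiO and clean air (triangles) lies with C60 in the clock genes.

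Bhlhe41 is a transcriptional repressor of the clock loop that is also expressed in alveolar macrophages. It was at 4.66, 4.58, 4.95 and 4.65 after NiO and at 3.32, 3.27, 3.35 and 3.29 after C60, a difference of 1.40 (SE 0.09; limma adjusted p = 0.000992) called in every alternative. NiO array 4 lay with the other NiO arrays here, unlike in Dbp and Bmal1. Of 15 clock genes, 1 was called higher and 1, Tef (-0.74, limma adjusted p = 0.049), lower, against 1.53 and 1.13 percent of all features. Tef lost its call without any C60 array or NiO array 1, 2 or 3. Without NiO array 4 the counts were 4 higher and 6 lower, and the differences of Dbp and Bmal1 moved from -2.22 and 0.86 to -3.05 and 1.24, both then called.

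In the 3 chemokine lists together, 5 of 41 genes tested were called (12.2 percent, against 2.66 percent of all features), 3 higher and 2 lower. Of 9 genes of neutrophil attraction, 1 was called higher, Cxcr1, a receptor for these chemokines (1.04, SE 0.18; limma adjusted p = 0.0272), lost without C60 array 1, 2 or 4 or NiO array 1 or 2. The attractants Cxcl1 (0.54, limma adjusted p = 0.404) and Cxcl2 (0.11, limma adjusted p = 0.90) were not called. Of 22 CC chemokines and receptors, 2 were called higher, Ccl6, a chemokine of myeloid cells (0.71), and Ccr1, a receptor of monocytes and neutrophils (0.69), and 1 lower, the decoy receptor Ccrl2 (-0.42). Ccl6 lost its call without any C60 array or NiO array 1 or 2, Ccr1 without C60 array 1 or 2 or NiO array 1 or 2, and Ccrl2 without C60 array 1, 2 or 4 or any NiO array. Of 10 other CXC chemokines 1 was called, the interferon-induced Cxcl9, at -4.36, -4.23, -3.93 and -3.93 after NiO and at -2.81, -3.22, -2.87 and -2.71 after C60, a difference of -1.21 (SE 0.14; limma adjusted p = 0.00964; -0.71 with normexp). Ccl2, a monocyte attractant, was at -0.04, -0.27 and -0.16 on NiO arrays 1, 2 and 4 and at 1.24 on array 3, against -0.39 to -0.05 after C60.

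Neutrophil markers were partly higher. Of 17 tested, 3 were called higher (1.53 percent of all features were): Lcn2, Cxcr1 and Trem1. Trem1, an activating receptor of myeloid cells (1.10, SE 0.13; limma adjusted p = 0.0107), kept its call in every alternative. Cd177, a neutrophil surface protein, was at 1.51, 1.57, 3.87 and 0.77 after NiO and at -0.17, -0.81, 0.18 and 0.05 after C60, but the difference of 2.11 had a limma adjusted p of 0.102. The granule genes Mpo, Ctsg, Ngp, Defa5 and Ltf and the receptor Fpr1 did not pass the filter on background, and S100a8 (0.14) and S100a9 (0.35) were not called. The summed level of the list was 33.3 to 88.7 after NiO, 20.8 to 27.9 after C60 and 16.4 to 22.8 in clean air. Lcn2 carried much of that gap: without it the sums were 18.1 to 36.0 after NiO and 14.6 to 22.4 after C60 and overlapped. The mean log2 level of the 17 genes also overlapped, at -0.77 to -0.19 after NiO and -1.04 to -0.53 after C60.

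Of 27 complement genes, 5 were called higher (1.53 percent of all features were) and 0 lower, with a median of 0.27. The count was 2 without C60 array 1 or 2 or NiO array 1 or 2 and 3 without C60 array 4. C4bpa, a chain of the inhibitor that binds C4b, was at 4.19, 4.05, 4.65 and 4.20 after NiO and at 3.02, 2.94, 3.06 and 3.09 after C60, a difference of 1.25 (SE 0.13; limma adjusted p = 0.00593) called in every alternative. C5, whose fragment attracts neutrophils, was higher by 0.96 (SE 0.13; limma adjusted p = 0.0126) and its receptor C5ar1 by 0.94 (SE 0.17; limma adjusted p = 0.0292). The pathway components C2 (0.58) and C4a (0.48) completed the count, and both lost their calls without C60 array 1, 2 or 4 or NiO array 1 or 2, C4a also without NiO array 3 or 4. C5ar1 lost its call without C60 array 1, 2 or 3 or NiO array 1 or 2. C3, the central component, was at 4.70, 4.79 and 4.82 on NiO arrays 1, 2 and 4 and at 6.10 on array 3, against 4.41 to 4.82 after C60, and was not called (limma adjusted p = 0.419).

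Of 16 acute phase genes, 4 were called higher and 1 lower (1.53 and 1.13 percent of all features were), with a median of 0.38. The higher genes were Lcn2, Itih1, the fibrinogen chain Fgg (0.77) and Itih3 (0.63), and the lower one Hamp, the iron hormone hepcidin (-0.60). Fgg and Hamp lost their calls without C60 array 1, 2 or 4 or NiO array 1, 2 or 3, Hamp also without C60 array 3, and Itih3 without C60 array 1 or 2 or NiO array 1 or 2. With normexp Itih3 differed by 0.13. For Hamp the clean-air arrays ran from 0.26 to 1.85 and covered both groups.

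Some genes of metal and oxidant handling were higher after NiO. Hmox1, which breaks down heme, was at 2.14, 2.19, 2.69 and 2.19 after NiO and at 1.23, 1.26, 1.43 and 1.17 after C60, a difference of 1.03 (SE 0.13; limma adjusted p = 0.0125) called in every alternative. Mt1, a metallothionein that binds zinc and other metal ions, was at 2.27, 2.18, 1.92 and 1.91 after NiO and at 1.17, 1.13, 0.81 and 1.31 after C60. It was higher by 0.97 (SE 0.13; limma adjusted p = 0.0135; 0.0517 without NiO array 2), and the C60 arrays themselves lay above clean air (0.14 to 0.63). Of 26 genes of metallothioneins, zinc and iron, 4 were called higher (Mt1, Hmox1, Slc11a1 and Ftl1) and 1, Hamp, lower, with a median of 0.18. Among all features 1.53 percent were called higher and 1.13 percent lower. The metal carrier Slc11a1 of phagosomes was higher by 0.96 and the ferritin chain Ftl1 by 0.55. For Ftl1, 2 of the 4 other kept probes gave 1.155 and 1.033. Slc11a1 lost its call without any C60 array or NiO array 1 or 2, and Ftl1 without C60 array 1, 2 or 4 or NiO array 1 or 2. Of 34 Nrf2 targets and antioxidant enzymes 3 were called higher, Hmox1, the aldo-keto reductase Akr1b8 (1.29) and thioredoxin Txn1 (0.42), with a median of 0.10. The last 2 lost their calls without any C60 array or NiO array 1 or 2, and Txn1 also without NiO array 3.

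The promoters of Mt1 and Gpnmb are shown as examples for the metal response element core and the M-box, which were among the motifs searched. Both are the 250 bases before the start, from RefSeq on GRCr8: Mt1 at chr19:10832976-10833225 on the minus strand, Gpnmb at chr4:79340878-79341127 on the plus strand. Capitals mark matches, on either strand, to the metal response element core TGCACNC or TGCGCNC in Mt1 and to the M-box TCATGTG in Gpnmb.
Mt1: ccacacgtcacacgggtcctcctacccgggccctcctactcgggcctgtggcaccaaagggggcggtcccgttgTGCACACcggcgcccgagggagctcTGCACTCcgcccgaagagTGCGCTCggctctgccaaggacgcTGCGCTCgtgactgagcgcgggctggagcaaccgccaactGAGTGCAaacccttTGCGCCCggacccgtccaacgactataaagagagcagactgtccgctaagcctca
Gpnmb: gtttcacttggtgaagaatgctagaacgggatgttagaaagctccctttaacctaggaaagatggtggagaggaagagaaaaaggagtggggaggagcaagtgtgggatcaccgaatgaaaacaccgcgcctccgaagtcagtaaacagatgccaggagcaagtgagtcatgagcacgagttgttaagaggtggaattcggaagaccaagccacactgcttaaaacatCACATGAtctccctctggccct
Mt1 held 6 matches and Gpnmb 1. Of 27457 promoters of this length, 21.2 percent held at least 1 metal response core and 0.02 percent at least 6, and 3.0 percent held the M-box. The metal core stood in 37 of 158 promoters of genes called higher (23.4 percent), in 31 of 111 of genes called lower (27.9 percent) and in 29.8 percent of those of genes tested. The M-box stood in 7 of 158 and 4 of 111, against 1.9 percent of genes tested. In all 6 motifs were searched, of which E-box (CACGTG), M-box, antioxidant element (TGACNNNGC) and AP-1 (TGANTCA) came first and both metal forms were added afterwards. The antioxidant element stood in 15.2 percent of promoters of genes called higher, 6.3 percent of genes called lower and 12.4 percent of genes tested. E-box shares were 7.0, 8.1 and 8.0 percent, and AP-1 shares 8.2, 3.6 and 4.8 percent, in the same order. These matches were described after the differences were known and were not tested.

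Of 28 genes of hypoxia and glycolysis, 4 were called higher, with a median of 0.19: the lactate carrier Slc16a3 (0.93), the glucose carrier Slc2a1 (0.45), Ndrg1 (0.43) and the glycolytic enzyme Pkm (0.43). Of 32 cell cycle genes 3 were called higher, Ccne1 (0.69), the spindle checkpoint kinase Bub1b (0.61) and the topoisomerase Top2a (0.40), with a median of 0.31 and 26 of 32 above 0. Of 23 genes of the unfolded protein and amino acid response 3 were called higher, Phgdh of serine synthesis (0.74), the stress factor Atf3 (0.63) and Asns of asparagine synthesis (0.50), with a median of -0.02. Among all features 1.53 percent were called higher. No member of these 3 lists kept its call in every alternative, and without C60 array 1 or 2 or NiO array 2 the counts were 0 for hypoxia and for the cell cycle. For the unfolded protein list the count was 0 without NiO array 1 or 2. When 1 array was left out, Slc2a1 and Bub1b lost their calls whichever array it was, and limma adjusted p reached 0.119 for Pkm, the highest of these 10 genes. Sterol synthesis (23 genes), proteasome (26) and respiratory chain (28) had 0 calls, with medians from -0.01 to 0.03. By an unadjusted p under 0.05 in limma these had 0, 1 and 1 genes higher and 0 genes lower, against 4676 of all 23672 features in either direction.

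Among other immune lists, 1 of 12 MHC class II genes (RT1-Db1, 0.38), 1 of 30 interferon and class I genes (Mx2, 1.40, from 0.18 to 0.66 after NiO and from -1.54 to -0.32 after C60, with clean-air array 4 at 1.69) and 1 of 24 interleukin-1, TNF and colony-stimulating factor genes (Il18, 0.64) were called higher. RT1-Db1 lost its call without any C60 array or NiO array 1, 2 or 3, Mx2 without C60 array 1 or 4 or NiO array 1, 2 or 3, and Il18 without any C60 array or NiO array 1 or 2. T and NK cell markers (21 genes) and B and plasma cell markers (12 genes) had 0 calls. By an unadjusted p below 0.05 in limma the T and NK list had 2 genes up and 0 down and the B list 2 up and 3 down. Over all 23672 features, 4676 reached that unadjusted level. Of 16 collagen chains, 1 was called higher: Col16a1, at 4.96, 5.03, 5.10 and 5.02 after NiO and at 4.43, 4.46, 4.37 and 4.46 after C60 (0.60, SE 0.06; limma adjusted p = 0.00604), called in every alternative but the fit of all 6 groups. The fibrillar collagen Col1a1 differed by -0.12 (limma adjusted p = 0.465). The collagenase activator Mmp14 was the 1 gene called of 17 matrix metalloproteinases and inhibitors (0.42), lost without C60 array 1, 2 or 3 or NiO array 1, 2 or 3. Of all features 1.53 percent were called higher, so 1 call in any of these lists is no result about the list.

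Markers of lung cells gave the following counts, beside 1.53 percent of all features called higher and 1.13 percent lower. Of 21 alveolar type II markers 4 were called higher, C5, Lpcat1 of surfactant lipid synthesis (0.77), the mucin Muc1 (0.57) and the fatty acid synthase Fasn (0.56). Lpcat1 lost its call without C60 array 1 or 2 or any NiO array, Muc1 without C60 array 1, 2 or 4 or NiO array 1 or 2, and Fasn without NiO array 2. The surfactant gene Sftpc differed by -0.10 and was not called. Of 16 alveolar type I markers none was called, at an unadjusted p under 0.05 in limma 0 were higher and 1 lower, and the median was 0.04. Of 18 ciliated cell markers 2 were called lower, Ccdc39 (-0.61; -0.39 with normexp) and the filament protein Tekt1 (-0.56), with a median of -0.28. Both lost their calls without C60 array 1, 2 or 4 or NiO array 1, 2 or 3, Tekt1 also without C60 array 3, and without NiO array 4 the count was 7. Of 27 endothelial markers none was called, yet 26 lay below 0 with a median of -0.21, and 10 had an unadjusted p under 0.05 in limma, all lower. Other lists leaned the same way: 1 of 18 ciliated cell, 1 of 19 fibroblast and 2 of 13 smooth muscle markers lay above 0. Of alveolar type II markers 15 of 21 lay above 0, and of type I markers 8 of 16. Among all 23672 features, 47.0 percent lay above 0 and 4676 had an unadjusted p under 0.05 in limma.

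**Figure D4:**
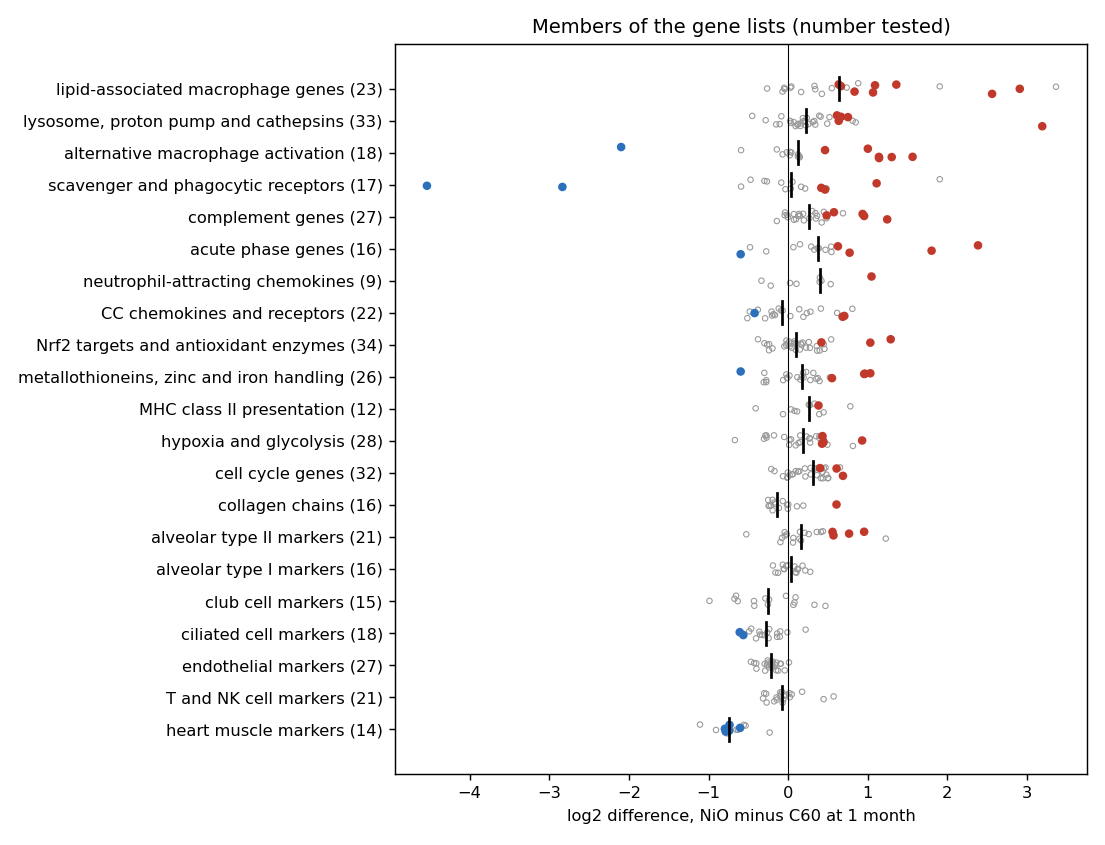
Each point is the log2 difference of 1 list member, filled where called, and each bar the median of the list, for 21 of the 44 lists. Lipid-associated macrophage genes lie furthest to the right by median (0.64) and heart muscle markers furthest to the left (-0.74).

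Heart muscle, which in rodents also sheathes large pulmonary veins, was the marker list with the lowest median. All 14 members tested lay below 0, with a median of -0.74, and 5 were called lower (1.13 percent of all features were). Myh7, a heavy chain of cardiac myosin, was at 2.87, 3.01, 3.12 and 3.57 after NiO and at 3.88, 3.82, 3.79 and 4.25 after C60, a difference of -0.79 (SE 0.16; limma adjusted p = 0.0458). Clean-air arrays ran from 3.52 to 4.29 and overlapped both. The others called were Myoz2 (-0.78), Myl7 (-0.74), Sln (-0.74) and Casq2 (-0.60). Summed over the list, the level was 85.7 to 119 after NiO, 140 to 205 after C60 and 106 to 185 in clean air. The count was 0 without C60 array 1 or 2 or NiO array 1, 2 or 3, 2 without C60 array 4 and 9 without NiO array 4. The part of this tissue in the difference of Ucp3, the carrier of muscle, was not tested.

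The same contrast at 3 days, measured on other arrays, was set beside these values. It rests on 4 NiO arrays and on 2 C60 arrays, which had the highest negative control signal of the series. Of the 362 features higher after NiO at 1 month, 305 (84.3 percent) were also higher at 3 days, against 54.2 percent of all features tested. Of the 267 lower features 59.2 percent were lower at 3 days, against 45.8 percent of all. Among changes of at least 1 log2 unit these shares were 92.4 and 82.4 percent. Atp6v0d2 (3.92), Trem2 (3.70) and Fbp1 (-2.90) had 3-day differences in the direction of those at 1 month. Tac1 was not well above background on any of the 4 NiO arrays at 3 days, so its sizes at both times were not compared. Mmp12 (6.22), Cd177 (4.50), Cxcl2 (2.79), Ccl7 (2.87) and Serpinb10 (-3.64) had larger ones at 3 days, but none of these 5 passed the test of the difference between the times (limma adjusted p = 0.238, 0.202, 0.054, 0.0769 and 0.0786). Mt1 differed by -0.01 at 3 days and 0.97 at 1 month, with a limma adjusted p of 0.16 for that change.

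Of 24099 features in the test between the times, 94 (0.390 percent) passed, 42 with a difference that was more positive and 52 with one that was more negative at 1 month. The 3-day C60 group had 2 arrays, by the n of its label. The count was 3818 without NiO array 1 of the 3-day slide and 11 without NiO array 2 of the 1-month slide, and scan day cannot be told apart from time. Ccr1, Myh7 and Myl7 were the named genes that passed. Ccr1 differed by -0.59 at 3 days and 0.69 at 1 month, a change of 1.27 (SE 0.24; limma adjusted p = 0.045). Myh7 went from 0.91 to -0.79 (change -1.71, SE 0.30; limma adjusted p = 0.0393) and Myl7 from 0.59 to -0.74 (change -1.33, SE 0.22; limma adjusted p = 0.0349). Ccr1 was not called with all 4 C60 arrays at 3 days, nor Myh7 with normexp. Each lost this call without at least 1 array: Ccr1 without any 1-month array, either 3-day C60 array or 3-day NiO array 3. Myh7 lost it without any 1-month array other than NiO array 4, or without 3-day C60 array 2 or 3-day NiO array 2 or 3. Myl7 lost it without 1-month C60 array 1 or 2, 1-month NiO array 1 or 2, 3-day C60 array 2 or 3-day NiO array 2.

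**Figure D5:**
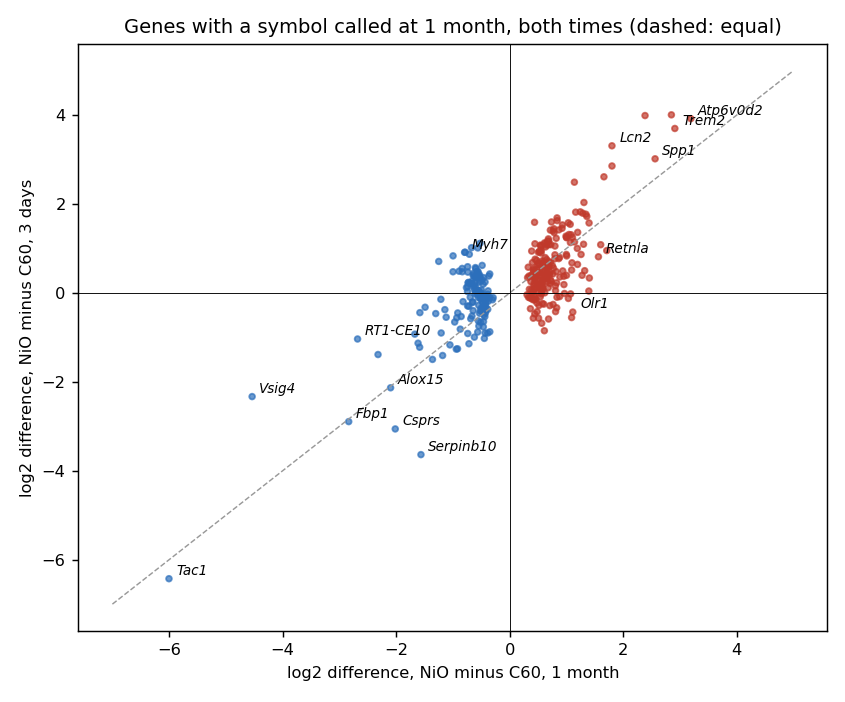
Each point is 1 of the 347 genes with a symbol called at 1 month, with its NiO minus C60 log2 difference at 1 month on the horizontal and at 3 days on the vertical axis. Fbp1 lies near the line of equality at -2.84 and -2.90, Tac1 and Vsig4 are placed by measured values with NiO arrays below the background mark, and Myh7 lies on opposite sides of 0.

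The C60 arrays overlapped the clean-air arrays for 59 of the 79 features higher by at least 1 log2 unit and for 23 of the 34 lower ones (74.7 and 67.6 percent, against 73.8 percent of all features). The NiO arrays overlapped them for 14 and 10 (17.7 and 29.4 percent, against 64.2 percent of all). Only the C60 arrays lay apart from clean air for the called named genes Slc16a14, RT1-CE10, Tesc, Olr1, Ccrl2, Ccne1, Myc and Tef. The clean-air arrays entered none of the main tests, only the alternative fits with clean air or with all 6 groups.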

How the data were processed

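Per the file headers, Agilent Feature Extraction 9.5.3.1 gave the deposited spot intensity (processed signal, background already subtracted) and the deposited other columns, marks for background, saturation and outliers. The deposited value table holds a ratio per probe and group. The sources used here do not say how the authors made it, and the log2 ratio of its NiO and C60 columns, from the authors' deposited table, had the direction of the fit for all 24 named genes, with a largest gap of 0.09. After centring, the mean of the 4 arrays minus the clean-air median matched each of these columns (median absolute log2 difference 0.00221, brighter probes). The columns thus hold the same arrays, and the shared direction is no independent support. From the intensity, log2 values minus each array's 75th percentile were computed. Outlier spots were left out, probes were kept when well above background on every array of NiO or of C60, and the brightest probe stood for a gene. Names came through RefSeq (GRCr8); 21522 of 41012 probes have no symbol. Differences were tested with limma 3.58.1 in R 4.3.3 (8 arrays; 14 for the test between times, with C60 3-day arrays 1 and 2, whose mean matched the deposited column where that of all 4 did not), checked on simulated data. Named were the 12 highest and 12 lowest called genes without overlap, and up to 4 called members per list. Genes outside that rule, among them Mmp12, Cd177, Msr1, Lgals3, Fabp5, Arg1, Ctsd, C4a, Ftl1, Casq2, the uncalled chemokines and the clock genes other than Bhlhe41 and Tef, and both promoters and the motifs were chosen after values were seen. The comparison and the 44 lists were chosen with earlier results of these data known. A single-gene result is not reported here.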

Additional observations from a re-analysis of the deposited data

Results flagged for a closer look

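Single arrays stood far from the other 3 of their group for 24 of 232 sets of 4 arrays examined over 116 genes, and 12 of the 24 were on NiO array 3. Chance gives about 1 in 20 sets, but only for independent genes not chosen by their values. Genes on 1 array are not independent, and some of these were named after their values were seen, so the 24 are not set against that rate. NiO array 3 lay above the others for Slc26a4 (4.71, next 3.18), Itih1 (-1.83, next -3.16), Lcn2 (5.72, next 4.17), Atp6v1b2 (4.24, next 3.76), Mmp14 (4.61, next 4.46), Ccrl2 (1.46, next 1.37), Hmox1 (2.69, next 2.19), Slc16a3 (3.20, next 2.63), Ccl2 (1.24, next -0.04), C3 (6.10, next 4.82) and Arg1 (4.58, next 3.73). It lay below them for Serpinb10 (0.76, next 1.72).

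NiO array 4 stood apart in Tac1 (-5.04, next -6.38), Sgk1 (2.35, next 2.49) and the clock genes Bmal1 (0.13, next 1.55), Dbp (2.92, next -0.28) and Per2 (1.25, next -0.38). C60 array 2 stood apart in Klk6 (0.05, next -1.02) and Trem1 (-0.65, next -0.18). C60 array 3 stood apart in Txn1 (6.19, next 6.43) and Ndrg1 (1.29, next 1.36), and C60 array 4 in Acp5 (5.30, next 5.01), Slc16a3 (2.17, next 1.74) and Myh6 (5.53, next 5.06).

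The difference between NiO and C60 changed between the times for Ccr1 (1.27, SE 0.24; limma adjusted p = 0.045), Myh7 (-1.71, SE 0.30; limma adjusted p = 0.0393) and Myl7 (-1.33, SE 0.22; limma adjusted p = 0.0349).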

How the results depend on the processing

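The counts of 362 higher and 267 lower features stayed within 1.5 times with quantile normalization, median scaling, normexp, a filter on every array, the mean of probes and a trended robust prior. They were 130 and 59 with no filter, 202 and 94 with clean air in the fit, and 209 and 98 with all groups in it. Array position does not pair the lungs (correlations of deviations 0.042 to 0.070), and with position as a block the counts were 158 and 135. Leaving out 1 array gave 71 to 474 higher and 24 to 460 lower. By at least 1 log2 unit, normexp gave 38 and 17. The 94 features of the test between times became 191 with all 4 C60 arrays at 3 days and 27 with normexp, and 11 to 3818 without 1 array. Among named genes, direction turned, without a call in that setting, for Slc16a14 with normexp (-0.0004), Cxcl2 without NiO array 1 (-0.010) or 3 (-0.142; highest 0.437), Ccl7 without NiO array 3 (-0.131; highest 0.448), Ager without C60 array 2 (-0.0051; highest 0.170) and Zbtb16 without NiO array 2 (-0.089; highest 0.622). Ranges in these brackets run over single arrays left out. With normexp, 17 of the 629 called features turned direction. The causes were not tested. Of 67 named list genes that were called, 56 lost the call in at least 1 alternative and none turned. Dim probes limit the size of a difference: their values shrank with normexp.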

Other observations

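Of 15 glucocorticoid-responsive genes, 4 were called higher after NiO: Mt1, Lcn2, the kinase Sgk1 (0.48) and the cell cycle inhibitor Cdkn1a (0.68), with a median of -0.04. Of 21 immediate early genes 2 were higher, Atf3 and the growth regulator Myc (0.55), with a median of -0.14. Of 11 mucous cell markers 3 were higher, Muc1, Slc26a4 and Lcn2, and of 31 other matrix genes 2, Spp1 and Plaur. Ucp3 was the 1 gene called, lower, of 24 PPAR targets. Among all features 1.53 percent were called higher and 1.13 percent lower, so this single call is no result about the PPAR list. Sgk1 lost its call without C60 array 1 or 2 or NiO array 1 or 2, and Cdkn1a and Myc lost theirs without any C60 array or NiO array 1, 2 or 3.

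None of 15 club cell, 13 smooth muscle, 19 fibroblast, 13 mast cell and eosinophil or 12 adipocyte markers was called by limma. At an unadjusted p below 0.05 they held 2, 0, 0, 0 and 1 genes higher and 7, 5, 7, 2 and 1 genes lower, with medians of -0.25, -0.21, -0.17, 0.03 and -0.11. Over all 23672 features, 4676 reached that unadjusted level.

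The red cell membrane gene Rhag, the 1 called of 9 red blood cell markers, was at least 1.89-fold lower (measured difference -0.92; limma adjusted p = 0.0474), with 2 of 4 NiO arrays well above background. Rhag lost its call without C60 array 2, 3 or 4 or any NiO array, and with normexp it differed by -0.39. Of all features 1.13 percent were called lower. Adipoq, a hormone of fat cells, was at 0.68 on C60 array 4 and between -1.07 and -0.35 on the other C60 arrays, against -1.58 to -0.98 after NiO. Zbtb16, a glucocorticoid-responsive transcription factor, was at -2.46, -1.58, -3.72 and -3.55 after NiO and at -2.90, -3.87, -3.10 and -2.74 after C60, while all clean-air arrays lay lower, at -6.36 to -4.45.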
